A study of Homo sapiens with 36 samples.

Results

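CST1, PLSCR4, KRT15, IPPK, GEMIN5, MBNL1, RMI2, LMNB1, EVA1C and ADAMTSL4 are 10 of the 60662 gene IDs in a count table from A549 cells, a human lung adenocarcinoma line. They were chosen because their counts were higher with siRNA against ATF6 (siATF6) than with a non-targeting siRNA (siControl) at 16 or 6 h, so their siATF6 to siControl ratios are given below as a description and were not tested. The study transfected A549 cells with siATF6, with siRNA against ATF4 (siATF4) or with siControl, each at 100 nM, and then kept them for 16 or 6 h in medium with 0 or 25 mM glucose. These 12 groups hold 3 biological replicates each, and poly(A) RNA was sequenced without strand information. All groups share the transfection, the dialysed serum and the glutamine. A transfected culture was divided over wells before glucose was withdrawn, so libraries of different groups may share a transfection, and the spread measured is that of cultures of a single cell line.

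ATF6 is a transcription factor held in the membrane of the endoplasmic reticulum (ER). When unfolded proteins build up in the ER lumen, ATF6 moves to the Golgi, is cut there, and its freed end enters the nucleus and turns on genes for ER chaperones, many through a promoter motif called the ER stress response element. ATF4 is the main transcription factor of the integrated stress response, which also answers amino acid shortage. The 10 genes are not known as a common pathway. They encode secreted and matrix proteins (CST1, ADAMTSL4), membrane proteins (EVA1C, PLSCR4), proteins of the cytoskeleton and nuclear lamina (KRT15, LMNB1), RNA-binding proteins (GEMIN5, MBNL1), a DNA repair subunit (RMI2) and an inositol phosphate kinase (IPPK).

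The depth of 35 libraries was between 39.4 and 78.7 M. Only 2.87 M were counted for replicate 3 of siATF4 in 0 mM glucose at 6 h, whose highest correlation with any other library was 0.172, where the lowest median correlation of the others was 0.941. It was left out of all values below unless stated, so that group has 2 libraries and each of the others 3. At 6 h the libraries labelled replicate 2 of siATF6 and of siControl went against their glucose labels: across 1935 genes, their 0 to 25 mM ratio correlated with the 16 h response of siControl at -0.628 in siATF6 and -0.691 in siControl, where the other 6 h pairs gave 0.552 to 0.684. The 6 h comparisons therefore average both glucose levels, and values without replicate 2 stand beside them. ATF6 mRNA averaged 8.84 to 15.4 counts per M (CPM) over the 4 siATF6 groups, against 45.5 to 91.0 CPM over the 4 siControl groups, with log2 fold changes of -2.58 in 0 mM and -2.36 in 25 mM glucose at 16 h and -2.23 at 6 h (edgeR adjusted p = 4.75e-06, 1.75e-05 and 1.51e-08). ATF4 mRNA with siATF4 was lower in 0 mM glucose at 16 h (-1.29, adjusted p = 0.000175) and at 6 h (-1.13, adjusted p = 0.00159), and differed by -0.28 in 25 mM at 16 h (adjusted p = 0.756). All 10 markers of the A549 line were measured, with a summed level of 11400 to 28300 CPM. Defining genes of alveolar type II cells (SFTPC, SFTPB, SFTPA1, SFTPD, NKX2-1), leukocytes (PTPRC, CD3E), endothelium (PECAM1, VWF, KDR) and fibroblasts (COL1A2, DCN, PDGFRA) were under 1 CPM in every library, as were the basal keratins KRT5 and KRT14. In bulk RNA, fewer cells of a type and less RNA per cell cannot be told apart.

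The genes lie apart on the genome. In the deposited table, whose build is GRCh38 per the submitters' processing notes, CST1 is at chr20:23747553-23751268, PLSCR4 at chr3:146192335-146251179, KRT15 at chr17:41513745-41522529, IPPK at chr9:92613183-92670131 and GEMIN5 at chr5:154887411-154938211, all on the minus strand. MBNL1 is at chr3:152243828-152465780, RMI2 at chr16:11249619-11381662, LMNB1 at chr5:126776623-126837020, EVA1C at chr21:32412006-32515397 and ADAMTSL4 at chr1:150549369-150560937, all on the plus strand. All 10 are protein coding and all 10 passed the filter on low counts. Since reads carry no strand, exons that lie under another gene were sought in GENCODE 29. IPPK shared 3719 of 5166 exon bases, or 72.0%, with CENPP, a centromere gene on the opposite strand. MBNL1 and ADAMTSL4 each shared 11.4% of their exon bases with an antisense transcript named after them, RMI2 shared 7.16% with a pseudogene, and KRT15 shared 2 bases with a microRNA gene. MBNL1 also shared 4.15% with the antisense gene AC026347.1, and ADAMTSL4 2.94% with the antisense gene AL356356.1. CST1, PLSCR4, GEMIN5, LMNB1 and EVA1C shared none. These shares are for the GENCODE 29 gene models, which hold 41271 of the 60662 gene IDs counted at the same version. The spans of PLSCR4, KRT15, IPPK and GEMIN5 in GENCODE 29 differ from those in the deposited table, so their shares in the counted models may differ.

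Promoters were read from RefSeq on GRCh38.p14, as windows of 250 bases before and 50 bases after a start of transcription, for 7 of the 10 genes with 12 windows in all. No window for CST1, KRT15 or RMI2 was used here. The bases before the start are shown for IPPK and GEMIN5, whose levels ran together over the groups, for LMNB1, which was also higher with siATF4, and for EVA1C, which did not pass with siATF4. Capitals mark CCACG on either strand (CGTGG when read on the other), which is the second part of the ER stress response element.
IPPK, chr9:92670132-92670381, minus strand: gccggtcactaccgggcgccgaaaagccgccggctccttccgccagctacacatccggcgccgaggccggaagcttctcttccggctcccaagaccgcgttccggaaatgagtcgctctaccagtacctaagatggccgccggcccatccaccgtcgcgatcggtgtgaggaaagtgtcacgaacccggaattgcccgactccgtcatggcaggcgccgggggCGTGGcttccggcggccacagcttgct
GEMIN5, chr5:154938212-154938461, minus strand: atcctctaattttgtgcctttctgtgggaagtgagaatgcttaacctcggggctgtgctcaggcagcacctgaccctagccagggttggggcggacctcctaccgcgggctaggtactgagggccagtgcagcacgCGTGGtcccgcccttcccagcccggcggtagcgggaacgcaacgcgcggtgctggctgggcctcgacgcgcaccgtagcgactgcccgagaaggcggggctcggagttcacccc
LMNB1, chr5:126776373-126776622, plus strand: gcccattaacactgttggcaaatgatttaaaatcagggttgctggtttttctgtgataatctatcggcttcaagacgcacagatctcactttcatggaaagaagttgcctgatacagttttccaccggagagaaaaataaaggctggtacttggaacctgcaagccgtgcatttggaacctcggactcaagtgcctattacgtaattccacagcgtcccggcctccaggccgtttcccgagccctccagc
EVA1C, chr21:32411473-32411722, plus strand: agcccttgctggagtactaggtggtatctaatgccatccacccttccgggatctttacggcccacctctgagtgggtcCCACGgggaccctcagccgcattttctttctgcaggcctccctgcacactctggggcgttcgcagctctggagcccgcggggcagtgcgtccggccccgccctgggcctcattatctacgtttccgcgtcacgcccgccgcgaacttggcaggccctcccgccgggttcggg
The whole ER stress response element (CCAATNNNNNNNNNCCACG) was in none of the 12 windows and in 0.0769% of all 35116. The ATF6 site TGACGTGG, the cyclic AMP response element TGACGTCA and the ATF4-bound element TGATGCAA were also in none of the 12, against 0.729%, 1.85% and 0.866% of all windows. CCACG alone was in 8 of the 12 windows, from 6 of the 7 genes, against 38.1% of all windows. The LMNB1 bases printed here do not hold it, but LMNB1 has it in bases not printed. It begins 120 bases before the start in another LMNB1 window (chr5:126776886-126777135), and at base 20 after a start. EVA1C also has another window (chr21:32412456-32412705), whose bases before the start do not hold it. These counts describe the letters in these windows and nothing else.

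Per length, the genes ranged widely. In siATF6 cells in 25 mM glucose at 16 h, LMNB1 stood at 70.1 TPM (transcripts per M, from counts and effective lengths), RMI2 at 43.5, MBNL1 at 42.3, EVA1C at 30, GEMIN5 at 21.6, CST1 at 12.1, IPPK at 11.3, KRT15 at 8.27, PLSCR4 at 4.95 and ADAMTSL4 at 3.05 TPM. In siControl cells under the same conditions the order was LMNB1 (42.0), MBNL1 (30.7), RMI2 (27.5), EVA1C (21.1), GEMIN5 (14.2), IPPK (6.96), KRT15 (4.88), CST1 (4.02), PLSCR4 (3.91) and ADAMTSL4 (1.90 TPM). CST1 had the widest span over the 12 groups, 11.5-fold between siATF6 in 0 mM at 6 h (18.8 TPM) and siATF4 in 0 mM at 16 h (1.63 TPM). RMI2 spanned 8-fold and LMNB1 6.58-fold, and the other 7 genes spanned 1.86-fold (ADAMTSL4) to 3.54-fold (EVA1C). The siATF6 groups held the highest mean of 9 genes, and a siATF4 group that of LMNB1 (74.4 TPM, in 25 mM at 6 h). The 6 h means of siATF6 and siControl hold replicate 2, which went against its glucose labels. LMNB1 in siATF6 replicate 2 at 6 h was 97.2 CPM in 25 mM and 155 CPM in 0 mM. Which 6 h group was highest is therefore not read from these means.

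**Figure D1:**
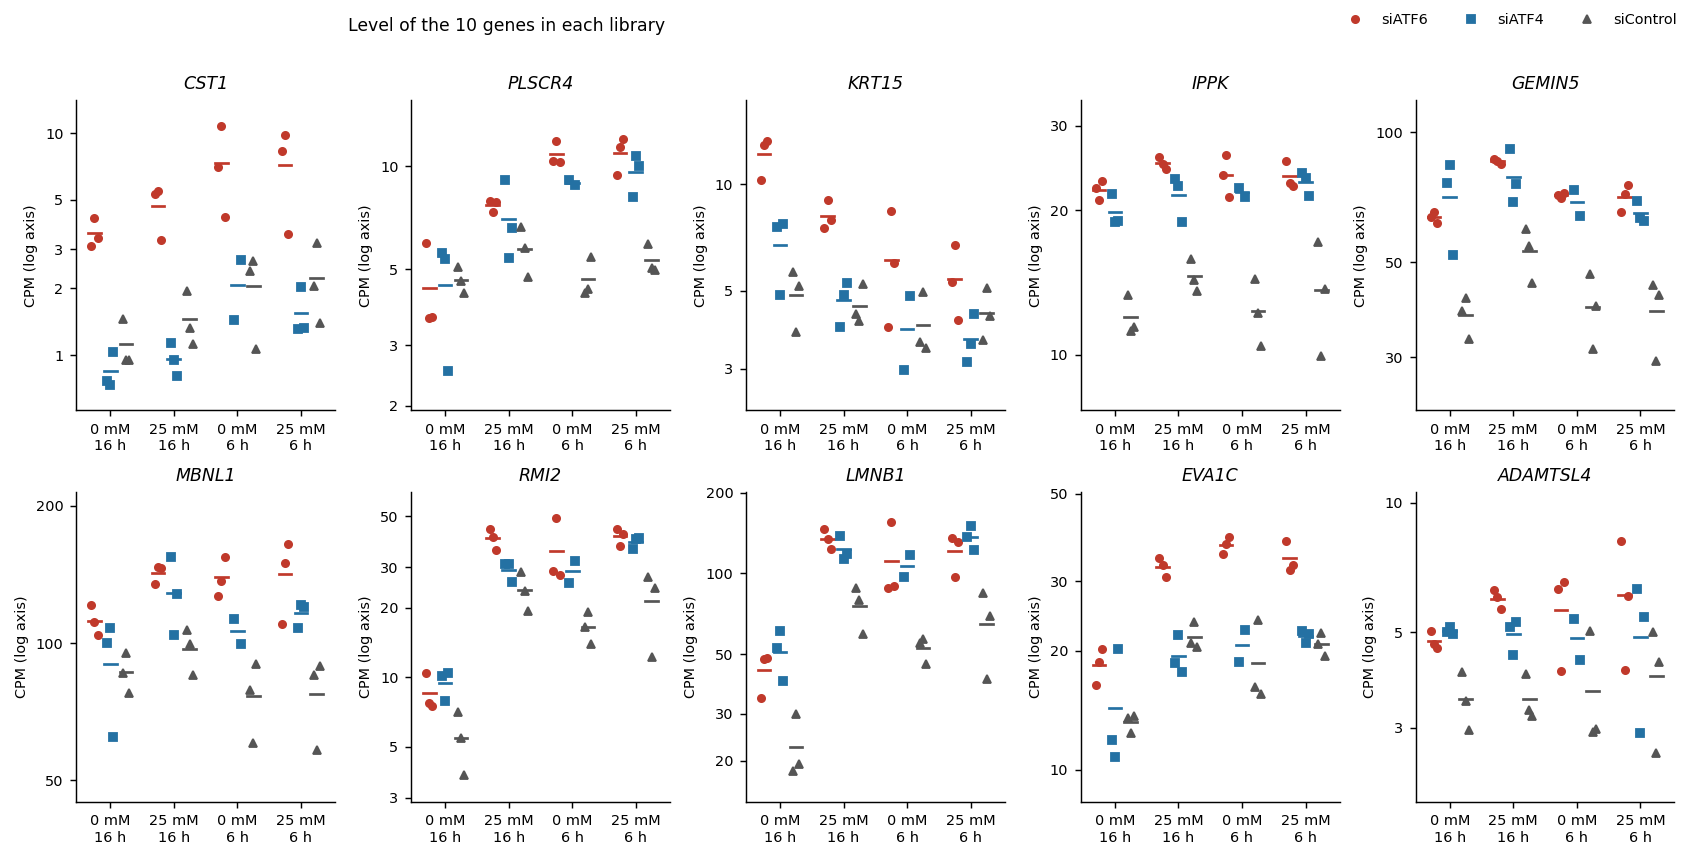
Level of each of the 10 genes in every library, in CPM on a log axis, for siATF6 (circles), siATF4 (squares) and siControl (triangles) in 0 and 25 mM glucose at 16 and 6 h; bars are group means. In 25 mM glucose at 16 h every siATF6 library lies above every siControl library for all 10 genes, while RMI2 and LMNB1 are lowest in 0 mM at 16 h under every siRNA.

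CST1, a secreted inhibitor of cysteine proteases (cystatin SN), had the largest siATF6 to siControl ratio of the 10. In 25 mM glucose at 16 h it stood at 5.33, 5.46 and 3.29 CPM in siATF6 cells, against 1.94, 1.32 and 1.12 CPM in siControl cells. In 0 mM at 16 h the values were 3.09, 4.13 and 3.37 CPM with siATF6, against 1.46, 0.948 and 0.949 CPM with siControl. The groups did not overlap in either medium. At 6 h siATF6 libraries ran from 3.52 to 10.8 CPM and siControl libraries from 1.07 to 3.20 CPM, and replicate 3 was the lowest of each group at that time. On the log2 scale, siATF6 over siControl was 1.64 ± 0.28 (SE, as below) in 0 mM and 1.68 ± 0.27 in 25 mM at 16 h, and 1.77 ± 0.27 at 6 h. CST1 is a low count, 33 to 656 per library. Its longest transcript is 94.7% identical to that of CST4 and 91.4% to that of CST2. Its counts may include reads of these copies, and their counts may include reads of CST1. CST2 stood at 0.199 to 1.5 CPM in siATF6 cells at 6 h and at 0.0952 to 0.411 CPM in siControl cells, with a log2 fold change of 1.87, and CST4 was at or under 0.649 CPM in every library.

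EVA1C is a single-pass membrane protein whose worm homologue, in Caenorhabditis elegans, is a co-receptor for the guidance cue Slit. In 25 mM glucose at 16 h EVA1C stood at 34.3, 32.9 and 30.7 CPM with siATF6, against 20.9, 23.6 and 20.5 CPM with siControl. In 0 mM it stood at 16.4, 18.8 and 20.2 CPM with siATF6, against 13.5, 12.4 and 13.7 CPM with siControl. At 6 h it ran from 32.0 to 38.9 CPM with siATF6 and from 15.6 to 24.0 CPM with siControl. The siATF6 libraries thus lay above the siControl libraries in all 4 conditions, with log2 fold changes of 0.47 ± 0.18 (0 mM, 16 h), 0.60 ± 0.18 (25 mM, 16 h) and 0.86 ± 0.12 (6 h). SLIT3, a Slit ligand, went the other way with siATF6, by -1.23, -1.03 and -1.10 (edgeR adjusted p = 0.000249, 0.00241 and 3.46e-06). Of the other 10 genes of the EVA1, SLIT and ROBO list tested at 16 h, SLIT3 was the only one past the threshold with siATF6 in either medium. Over all genes, 2.91% fell and 1.12% rose in 0 mM, and 0.577% fell and 0.2% rose in 25 mM.

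PLSCR4 belongs to the phospholipid scramblases of the plasma membrane, and its siATF6 to siControl ratio was seen mainly at 6 h. It stood at 10.4, 11.9 and 10.3 CPM in siATF6 cells in 0 mM glucose at 6 h, against 4.26, 4.37 and 5.45 CPM in siControl cells, and 25 mM gave 9.46 to 12.0 CPM with siATF6 against 4.99 to 5.92 CPM with siControl. In 25 mM at 16 h the siATF6 libraries were at 7.36 to 7.91 CPM, above the siControl libraries at 4.75 to 6.66 CPM. In 0 mM at 16 h the groups overlapped, at 3.61 to 5.97 CPM with siATF6 and 4.28 to 5.09 CPM with siControl. Its log2 fold changes were 1.13 ± 0.16 at 6 h, 0.44 ± 0.27 in 25 mM and -0.10 ± 0.28 in 0 mM at 16 h.

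KRT15, a type I keratin of basal epithelial cells, had its largest ratio in 0 mM glucose at 16 h. There it stood at 10.3, 12.9 and 13.3 CPM with siATF6, against 5.66, 3.81 and 5.14 CPM with siControl. In 25 mM it stood at 7.52 to 9.03 CPM with siATF6 and 4.10 to 5.21 CPM with siControl. At 6 h the groups overlapped in each medium. Its ratios on the log2 scale were 1.31 ± 0.20, 0.85 ± 0.20 and 0.47 ± 0.18 in 0 mM at 16 h, in 25 mM at 16 h and at 6 h. None of the 10 other keratins tested at 16 h passed the threshold with siATF6 in edgeR. Of all genes, 1.12% rose and 2.91% fell in 0 mM, and 0.2% rose and 0.577% fell in 25 mM.

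ADAMTSL4, an ADAMTS-like matrix protein that binds fibrillin microfibrils, was the lowest of the 10 per length in 25 mM glucose at 16 h with siATF6 and with siControl. It stood at 6.26, 6.05 and 5.67 CPM in siATF6 cells in 25 mM glucose at 16 h, against 4.00, 3.31 and 3.20 CPM in siControl cells, and at 4.59 to 5.03 CPM against 2.97 to 4.05 CPM in 0 mM. At 6 h the groups overlapped in each medium. On the log2 scale its ratios were 0.43 ± 0.15, 0.78 ± 0.15 and 0.62 ± 0.19 in 0 mM at 16 h, in 25 mM at 16 h and at 6 h.

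IPPK, the kinase that makes inositol hexakisphosphate, had the most even ratio. In 0 mM glucose at 16 h it stood at 22.3, 21.0 and 23.0 CPM with siATF6, against 13.3, 11.2 and 11.4 CPM with siControl. In 25 mM it stood at 25.8, 25.0 and 24.4 CPM with siATF6, against 15.8, 14.3 and 13.6 CPM with siControl. At 6 h it ran from 21.3 to 26.1 CPM with siATF6 and from 9.95 to 17.2 CPM with siControl, again without overlap. The log2 fold changes were 0.87 ± 0.11, 0.79 ± 0.11 and 0.87 ± 0.10 in 0 mM at 16 h, in 25 mM at 16 h and at 6 h. CENPP, which covers most of its exons, differed between siATF6 and siControl by 0.01, -0.14 and 0.09 on the log2 scale in the same comparisons, at group means of 6.6 to 10.8 CPM over the siATF6 and siControl groups. Reads in the shared exons cannot be assigned to either gene by strand.

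GEMIN5, the RNA-binding subunit of the SMN complex that recognises small nuclear RNAs, stood at 63.7, 65.4 and 61.7 CPM in siATF6 cells in 0 mM glucose at 16 h, against 38.5, 41.3 and 33.1 CPM in siControl cells. In 25 mM it stood at 84.5 to 86.8 CPM with siATF6 and at 44.8 to 59.8 CPM with siControl, and at 6 h at 65.5 to 75.4 CPM with siATF6 and 29.4 to 47.0 CPM with siControl. The groups did not overlap in any of the 4 conditions. GEMIN5 had log2 fold changes of 0.74 ± 0.16, 0.70 ± 0.16 and 0.87 ± 0.11 in 0 mM at 16 h, in 25 mM at 16 h and at 6 h. Of 13 other genes of SMN complex and snRNP assembly, GEMIN4, a partner in the same complex, was higher in both media at 16 h (0.42 and 0.37 in 0 and 25 mM, edgeR adjusted p = 0.00888 and 0.0494), and DDX20 at 6 h (0.33, adjusted p = 0.00543). Of all genes, 1.12% and 0.2% rose in 0 and 25 mM at 16 h, and 2.76% at 6 h.

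MBNL1, a regulator of alternative splicing, ran from 104 to 121 CPM with siATF6 in 0 mM glucose at 16 h, against 77.8 to 95.1 CPM with siControl. In 25 mM the libraries ran from 135 to 147 CPM with siATF6 and from 85.1 to 107 CPM with siControl, and at 6 h from 110 to 165 CPM against 58.4 to 90.1 CPM. These gave log2 fold changes of 0.36 ± 0.18, 0.56 ± 0.18 and 0.87 ± 0.13 in 0 mM at 16 h, in 25 mM at 16 h and at 6 h. MBNL1 reads also cannot be told apart by strand from those of its antisense transcript in the shared 11.4% of exon bases. The same holds for AC026347.1 in 4.15%.

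LMNB1, which encodes lamin B1 of the nuclear lamina, stood at 34.2, 47.9 and 48.5 CPM with siATF6 in 0 mM glucose at 16 h, against 18.3, 29.9 and 19.5 CPM with siControl. In 25 mM it stood at 146, 134 and 123 CPM with siATF6, against 88.4, 79.4 and 59.4 CPM with siControl. At 6 h it ran from 87.8 to 155 CPM with siATF6 and from 40.4 to 84.4 CPM with siControl. The log2 fold changes were 0.93 ± 0.21, 0.83 ± 0.21 and 0.99 ± 0.17 in 0 mM at 16 h, in 25 mM at 16 h and at 6 h. RMI2, a subunit of the BLM helicase complex that resolves joined DNA molecules, stood at 10.4, 7.74 and 7.51 CPM with siATF6 in 0 mM at 16 h, against 7.08, 5.45 and 3.75 CPM with siControl. In 25 mM it ran from 35.6 to 44.1 CPM with siATF6 and from 19.3 to 28.6 CPM with siControl, and its log2 fold changes were 0.64 ± 0.21, 0.76 ± 0.20 and 1.02 ± 0.17 in the same order. Both genes kept siATF6 libraries above siControl libraries in all 4 conditions.

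Across all genes, siATF6 libraries lay wholly above siControl libraries for 14.7% of genes in 0 mM at 16 h, 15.5% in 25 mM at 16 h, 7.77% in 0 mM at 6 h and 8.9% in 25 mM at 6 h, and for 9, 10, 8 and 8 of the 10 genes. In edgeR, 5 of the 10 passed a genome-wide adjusted p of 0.05 upward in 0 mM at 16 h (CST1, KRT15, IPPK, GEMIN5, LMNB1), where 1.12% of 18013 genes did. In 25 mM at 16 h 3 passed (CST1, IPPK, ADAMTSL4), against 0.2% of genes, and at 6 h all but KRT15, against 2.76% of 19030 genes. The genes were chosen on these comparisons, so nothing is read from these counts. Without replicate 2 at 6 h, the 6 h log2 fold changes ran from 0.38 (KRT15) to 1.74 (CST1). Genes that passed in all 3 comparisons numbered 20, of which CST1 and IPPK are 2 of the 10. The largest of the others were IL2RG, a cytokine receptor chain (log2 fold changes of 2.60 and 3.42 in 0 and 25 mM at 16 h, and 2.43 at 6 h), NFKB2, a subunit of NF-kappa-B (0.96, 0.78 and 0.93), TSC22D1 (0.58, 0.67 and 0.61) and SQSTM1, an autophagy receptor (0.61, 0.80 and 0.56).

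**Figure D2:**
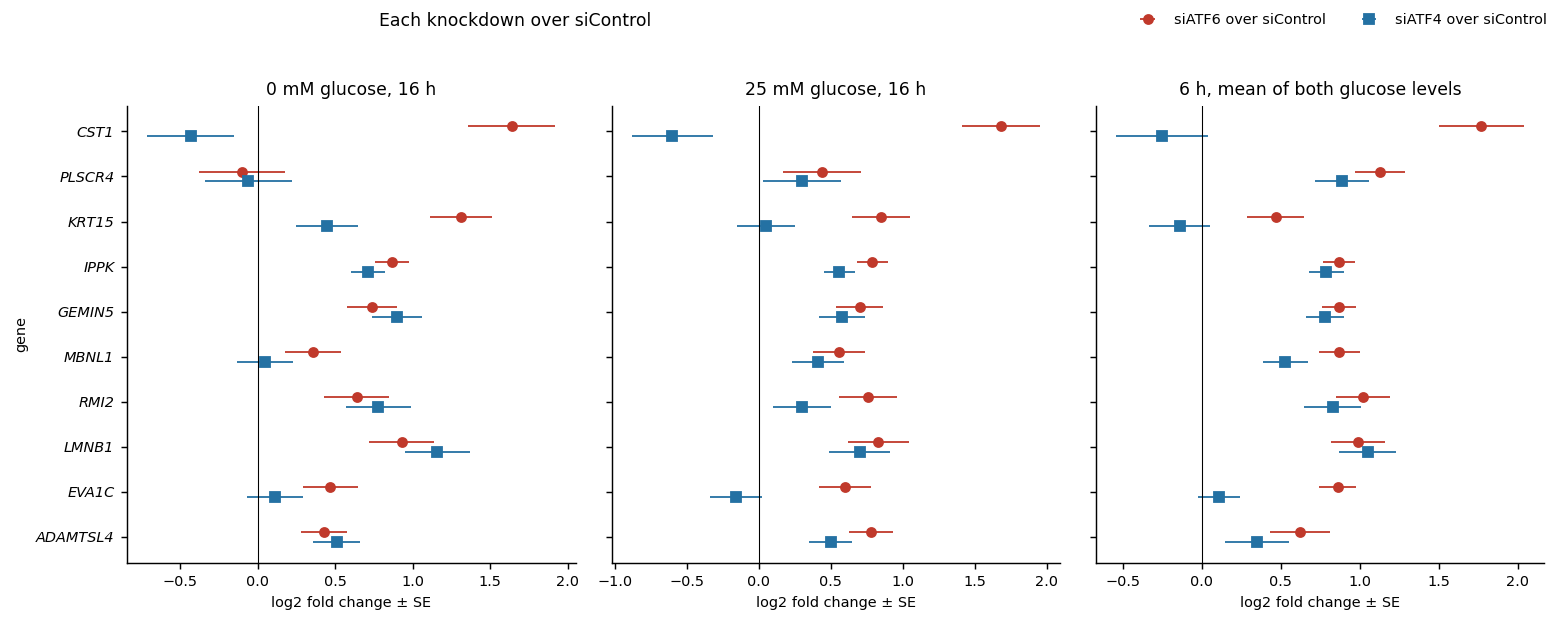
Log2 fold change ± SE (x axis) of each gene (y axis) for siATF6 over siControl (circles) and siATF4 over siControl (squares) in 0 mM glucose at 16 h, in 25 mM at 16 h and at 6 h as the mean of both glucose levels. IPPK, GEMIN5 and LMNB1 lie between 0.70 and 0.99 with siATF6 and between 0.56 and 1.16 with siATF4, whereas CST1 lies at 1.64 to 1.77 with siATF6 and at -0.60 to -0.25 with siATF4.

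With siATF4, part of the set was also higher than in siControl and part was not. The siATF4 libraries entered the choice only for IPPK, through its 6 h ratio. The siControl libraries are the same as above, and the genes were chosen for being higher than in them, so the share called over all genes is not the share these 10 would have without a change. In 0 mM glucose at 16 h, 5 of the 10 rose with siATF4 in edgeR, where 7.46% of all genes rose (2271 genes changed in all, 545 without siControl replicate 3 and 4032 without siATF4 replicate 2): LMNB1 by 1.16 (adjusted p = 0.00404), GEMIN5 by 0.90 (adjusted p = 0.00366), RMI2 by 0.78 (adjusted p = 0.0275), IPPK by 0.71 (adjusted p = 0.00143) and ADAMTSL4 by 0.51 (adjusted p = 0.0346). At 6 h, leaving IPPK aside, 4 rose, where 0.0841% of all genes, 16 in number, did. They were LMNB1 (1.05, adjusted p = 0.00382), PLSCR4 (0.89, adjusted p = 0.0127), RMI2 (0.83, adjusted p = 0.0393), and GEMIN5 (0.78, adjusted p = 0.00137). IPPK had a 6 h ratio of 0.79, which is a description since its choice had used it. In 25 mM at 16 h, where ATF4 mRNA itself differed by -0.28, none of the 10 passed and 0.0222% of genes rose. There 6 of the 10 were under an unadjusted p of 0.05 in edgeR, and DESeq2 called 1, IPPK. The median log2 fold change of the 10 with siATF4 was 0.48 in 0 mM and 0.35 in 25 mM at 16 h and 0.65 at 6 h, beside -0.02, 0.00 and -0.01 over all genes tested.

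The libraries behind these calls were as follows. LMNB1 stood at 52.8, 60.8 and 39.7 CPM with siATF4 in 0 mM at 16 h, against 18.3, 29.9 and 19.5 CPM with siControl, and the groups did not overlap. GEMIN5 stood at 76.4, 84.0 and 52.0 CPM with siATF4, against 38.5, 41.3 and 33.1 CPM with siControl. IPPK stood at 21.6, 18.9 and 19.0 CPM with siATF4, against 13.3, 11.2 and 11.4 CPM with siControl. In each of these 3 genes the lowest siATF4 library lay above the highest siControl library. Over the 10 genes, siATF4 libraries lay wholly above siControl libraries for 5 in 0 mM at 16 h, 4 in 25 mM at 16 h, 6 in 0 mM at 6 h and 6 in 25 mM at 6 h, where all genes gave 14.7%, 7.88%, 8.52% and 6.35%. IPPK, GEMIN5 and LMNB1 were among them in all 4 conditions. In 25 mM at 16 h IPPK differed by 0.56 (adjusted p = 0.0989), and by 0.56 with the replicate number as a block (adjusted p = 0.0227).

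These siATF4 calls rest on the spread pooled over groups. With only the libraries compared in the fit, none of the 10 passed in 0 mM at 16 h or at 6 h, and over the genome edgeR called 0 genes (2669 and 1777 at an unadjusted p under 0.05), while the log2 fold changes of the 5 genes called in 0 mM were 0.51 to 1.16. Without replicate 2 at 6 h, which leaves 1 siATF4 library in 0 mM, assumed to vary like the other groups, none of these 4 passed, with LMNB1 at 0.84 (adjusted p = 0.0901), GEMIN5 at 0.69 (adjusted p = 0.059), PLSCR4 at 0.82 (adjusted p = 0.491) and RMI2 at 0.66 (adjusted p = 0.309). IPPK was then at 0.70. With all 36 libraries in the fit, none passed in either comparison. In 0 mM at 16 h, leaving out siControl replicate 2, siControl replicate 3 or siATF4 replicate 3 ended the calls of RMI2 (0.57 to 0.79) and ADAMTSL4 (0.40 to 0.52), and without siATF4 replicate 2 KRT15 passed (0.63, adjusted p = 0.0293). At 6 h the RMI2 call ended with 9 of the 11 libraries left out in turn (0.69 to 0.90; all but siControl replicate 2 in 0 mM and 1 in 25 mM), that of PLSCR4 without siATF4 replicate 1 or 2 in 0 mM or replicate 2 in 25 mM (0.85 to 0.91), and that of LMNB1 without siATF4 replicate 2 in 0 mM (0.97, adjusted p = 0.0674).

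In the edgeR fit reported above, CST1, KRT15, EVA1C and MBNL1 did not pass with siATF4 in any comparison. At 6 h DESeq2 called 6 genes of the set with siATF4, where edgeR called 5 with IPPK counted. Which genes these 6 were is not given here. For MBNL1, every siATF4 library lay above every siControl library at 6 h, in 0 mM and in 25 mM glucose. MBNL1 differed from siControl by 0.05 in 0 mM and 0.41 in 25 mM at 16 h and by 0.53 at 6 h (95% intervals -0.30 to 0.39, 0.06 to 0.75 and 0.26 to 0.80). CST1 differed by -0.43, -0.60 and -0.25 in the same order (intervals -0.99 to 0.13, -1.15 to -0.06 and -0.82 to 0.32). It stood at 0.768, 0.734 and 1.03 CPM with siATF4 in 0 mM at 16 h, and 2 of these 3 lay below every siControl library. EVA1C differed by 0.11, -0.16 and 0.11 (intervals -0.25 to 0.46, -0.51 to 0.20 and -0.13 to 0.36), and KRT15 by 0.45, 0.05 and -0.14 (intervals 0.06 to 0.84, -0.34 to 0.44 and -0.51 to 0.23). Set directly against siATF4, siATF6 gave CST1 log2 fold changes of 2.07, 2.29 and 2.02 in 0 mM at 16 h, in 25 mM at 16 h and at 6 h. EVA1C gave 0.37, 0.75 and 0.75 and KRT15 gave 0.86, 0.80 and 0.60, while IPPK gave 0.15, 0.23 and 0.08 and GEMIN5 -0.16, 0.13 and 0.09. The siATF6 libraries had chosen the genes, so these ratios were not tested.

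After 16 h without glucose the nuclear genes RMI2 and LMNB1 were lower under every siRNA, and each of the other 8 had a smaller change. The siATF6 libraries at both times chose the genes, so changes over glucose or time within siATF6 are given as descriptions, without a test. The siControl libraries entered that choice as well, which limits the siControl tests, while the siATF4 libraries did not, apart from the 6 h ratio of IPPK. RMI2 stood at 7.51 to 10.4 CPM in 0 mM against 35.6 to 44.1 CPM in 25 mM with siATF6, at 7.89 to 10.4 against 25.9 to 31.0 CPM with siATF4, and at 3.75 to 7.08 against 19.3 to 28.6 CPM with siControl. Its log2 fold change was -2.26 ± 0.21 (SE) with siATF6, -1.65 with siATF4 (adjusted p = 3.83e-05) and -2.14 with siControl (adjusted p = 2.24e-06). That of LMNB1 was -1.65 ± 0.21 with siATF6, -1.29 with siATF4 (adjusted p = 0.000325) and -1.75 with siControl (adjusted p = 1.6e-05). The libraries of the 2 media did not overlap for either gene. Cell cycle genes moved the same way: of 24 S phase genes, 22 fell with siATF6, 23 with siATF4 and 22 with siControl. Of 23 genes of G2 and mitosis, 17, 14 and 21 fell, where 17.9%, 14.2% and 14.4% of all genes did. The part of these cell cycle genes in the fall of RMI2 and LMNB1 was not tested.

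EVA1C differed between 0 and 25 mM glucose by -0.85 ± 0.18 with siATF6, and it fell with siControl (-0.72, adjusted p = 0.0073). With siATF4 it differed by -0.46 (adjusted p = 0.0715), or by -0.79 without replicate 3 in 0 mM (adjusted p = 0.000233). GEMIN5 differed by -0.46 ± 0.16 with siATF6, fell with siControl (-0.50, adjusted p = 0.0279), and differed by -0.17 with siATF4 (adjusted p = 0.44). MBNL1 fell with siATF4 (-0.53, adjusted p = 0.0335). PLSCR4 differed by -0.84 ± 0.28 with siATF6. KRT15 differed by 0.55 ± 0.20 with siATF6, at 10.3 to 13.3 CPM in 0 mM against 7.52 to 9.03 CPM in 25 mM. The 0 mM libraries of that pair are among those that chose KRT15 for its high level. With siATF4 3 of the 10 fell and none rose, where 14.2% of genes fell and 14.9% rose. With siControl 4 fell and none rose, where 14.4% fell and 14.6% rose. With siATF6 5 passed downward and 1 upward, where 17.9% and 15.6% of genes did, and nothing is read from these counts. CST1, IPPK and ADAMTSL4 passed under no siRNA. Leaving out single libraries ended the calls of GEMIN5 with siControl (4 of 6: replicates 1 and 2 in 25 mM, 1 and 3 in 0 mM, -0.51 to -0.40) and of MBNL1 with siATF4 (3 of 6: replicates 1 and 3 in 25 mM, 3 in 0 mM, -0.54 to -0.33). With siATF4, PLSCR4 passed without replicate 2 in 25 mM (-0.82, adjusted p = 0.0489) and KRT15 without replicate 2 in 0 mM (0.69, adjusted p = 0.013). With the replicate number as a block, IPPK also fell with siControl (-0.29, adjusted p = 0.0199), where without the block it differed by -0.28 (adjusted p = 0.0602; -0.37 and 0.0343 without replicate 1 in 0 mM).

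The response to withdrawal was not shown to differ between siATF4 and siControl for any of the 10. The difference of siATF4 minus siControl in that response was largest for RMI2 (0.49, 95% interval -0.08 to 1.06) and LMNB1 (0.46, interval -0.11 to 1.04), and no gene of the 10 passed in edgeR (adjusted p = 0.599 and 0.616 for these). The difference of siATF6 minus siControl, which contains the ratios that chose the genes and was not tested, ran from -0.54 (PLSCR4) to 0.45 (KRT15). For IPPK, GEMIN5, LMNB1 and CST1 it lay between -0.05 and 0.10.

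**Figure D3:**
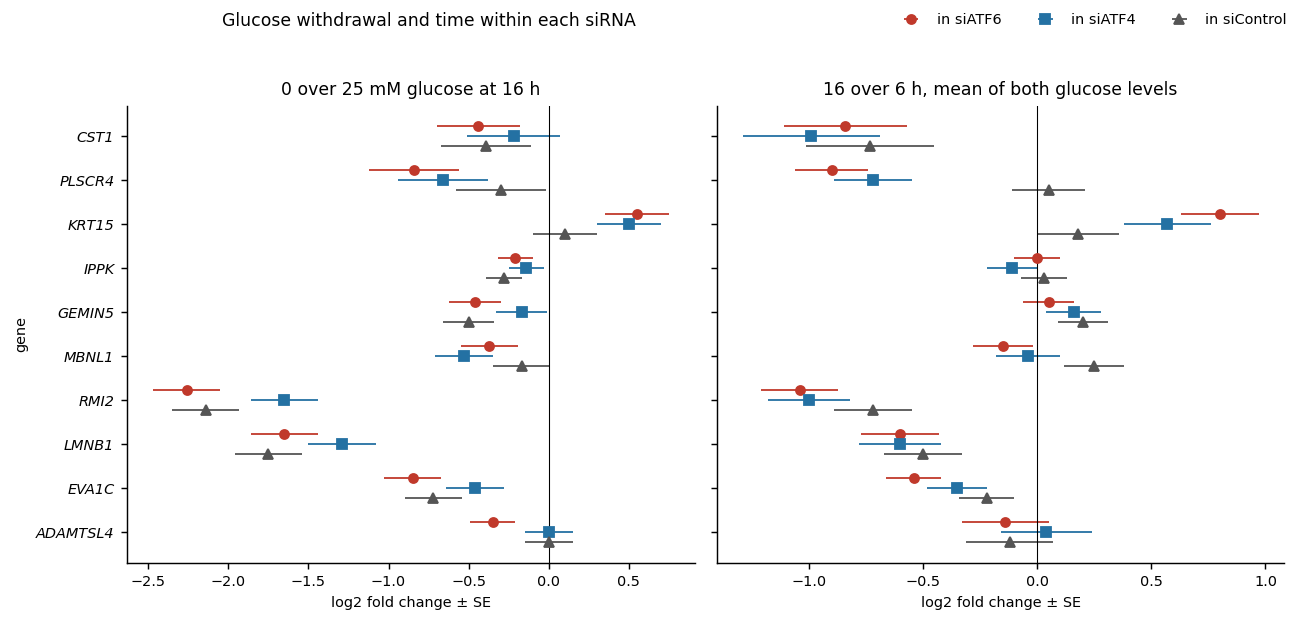
Log2 fold change ± SE (x axis) of each gene (y axis) for 0 over 25 mM glucose at 16 h and for 16 over 6 h as the mean of both glucose levels, within siATF6 (circles), siATF4 (squares) and siControl (triangles). RMI2 and LMNB1 lie far to the left for glucose under all 3 siRNAs, and PLSCR4 lies at -0.90 and -0.72 for time in siATF6 and siATF4 and at 0.05 in siControl.

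After 6 h without glucose none of the 10 genes passed under any siRNA, with no gene of the 10 under an unadjusted p of 0.05, in edgeR or DESeq2. Over all genes edgeR called 0 under each siRNA (178, 1031 and 171 at an unadjusted p under 0.05 with siATF6, siATF4 and siControl) and DESeq2 called 2, 2 and 3. Without replicate 2 edgeR called 317, 231 and 557 genes, and again none of the 10. In that fit siATF4 in 0 mM has 1 library, assumed to vary like the other groups. RMI2 then differed between 0 and 25 mM by -0.60 with siATF6, -0.57 with siATF4 and -0.76 with siControl, and LMNB1 by -0.58, -0.42 and -0.61, none past the threshold (lowest adjusted p = 0.0742, RMI2 with siControl). Replicate 2 was left out there for the direction of this same response in siATF6 and siControl, while replicate 2 of siATF4 went with its labels (0.56).

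At 16 h against 6 h, as the mean of both glucose levels, RMI2 fell with siATF4 (-1, adjusted p = 0.000528) and with siControl (-0.72, adjusted p = 0.0165), and differed by -1.04 ± 0.17 with siATF6. The difference lay mostly in 0 mM glucose, where RMI2 averaged 8.55 CPM at 16 h against 35.2 CPM at 6 h with siATF6, 9.46 against 28.8 CPM with siATF4 and 5.42 against 16.5 CPM with siControl. In 25 mM it averaged 40.1 CPM at 16 h against 41 CPM at 6 h with siATF6, 29.3 against 38.6 CPM with siATF4 and 23.9 against 21.3 CPM with siControl. LMNB1 fell with siATF4 (-0.60, adjusted p = 0.0224), and differed by -0.60 ± 0.17 with siATF6 and by -0.50 with siControl (adjusted p = 0.101). In 25 mM LMNB1 averaged 134 CPM at 16 h against 121 CPM at 6 h with siATF6. It averaged 123 against 136 CPM with siATF4 and 75.7 against 64.6 CPM with siControl. The 6 h means of siATF6 and siControl hold replicate 2, which went against its glucose label. In 25 mM at 6 h LMNB1 in replicate 2 was 97.2 CPM with siATF6, beside 135 and 131 CPM. With siControl it was 40.4 CPM, beside 84.4 and 69.2 CPM. RMI2 in replicate 2 with siControl was 12.3 CPM, beside 27.3 and 24.4 CPM. No direction over time in 25 mM is read from these means. The change over time was not tested within a medium.

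PLSCR4 fell with siATF4 (-0.72, adjusted p = 0.00506) and differed by 0.05 with siControl (adjusted p = 0.917). With siATF6 it differed by -0.90 ± 0.16. Its choice rests on its level at 6 h, one end of this difference. CST1 fell with siATF4 (-0.99, adjusted p = 0.0267), and differed by -0.84 ± 0.27 with siATF6 and by -0.73 with siControl (adjusted p = 0.148). EVA1C differed by -0.54 ± 0.12 with siATF6. KRT15 rose by 0.57 with siATF4 (adjusted p = 0.0417), and differed by 0.80 ± 0.17 with siATF6. With siATF4 4 of the 10 fell and 1 rose, where 6.05% of genes fell and 7.58% rose, and with siControl 1 fell and none rose, where 2.37% fell and 1.51% rose. With siATF6 5 passed downward and 1 upward, where 5.19% and 4.47% of genes did, and nothing is read from these counts.

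Some of these calls over time depend on 6 h replicate 2. Without it, CST1 with siATF4 (-0.62, adjusted p = 0.22), PLSCR4 with siATF4 (-0.69, adjusted p = 0.0526) and LMNB1 with siATF4 (-0.49, adjusted p = 0.0643) did not pass, while LMNB1 fell with siControl (-0.59, adjusted p = 0.0187). RMI2 changed by -0.91 with siATF4 and -0.80 with siControl, past the threshold in both, and KRT15 rose by 0.75 with siATF4. Within siATF6 the values without it were -0.51 for CST1, -0.86 for PLSCR4, -0.91 for RMI2 and 1.04 for KRT15. Single libraries also decided calls. With siATF4, the call of CST1 ended without replicate 2 or 3 in 25 mM at 16 h or replicate 2 in either medium at 6 h (-0.98 to -0.74), and that of LMNB1 without replicate 3 in 0 mM or 2 in 25 mM at 16 h or replicate 2 in either medium at 6 h (-0.57 to -0.53). KRT15 lost its siATF4 call with 7 of 11 libraries (0.42 to 0.56; all but replicate 2 in 0 mM and 1 in 25 mM at 16 h, and 2 in 0 mM and 3 in 25 mM at 6 h). With siControl, RMI2 lost its call without replicate 3 in either medium at 16 h or replicate 1 in 25 mM at 6 h (-0.65 to -0.61), and LMNB1 passed without replicate 2 in 0 mM at 16 h or replicate 2 in 25 mM at 6 h (-0.62 in each). EVA1C with siATF4 differed by -0.35 (adjusted p = 0.062), or by -0.52 without replicate 3 in 0 mM at 16 h (adjusted p = 0.00113). The change in PLSCR4 over time differed between siATF4 and siControl by -0.77 (95% interval -1.23 to -0.31), which did not pass over all genes (adjusted p = 0.767). For siATF6 minus siControl the PLSCR4 difference was -0.95 and was not tested.

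The 12 group means show how far the 10 genes ran together. These Pearson correlations of log2 CPM share libraries and groups and are descriptions. RMI2 and LMNB1 correlated at 0.966, IPPK and GEMIN5 at 0.951, IPPK and ADAMTSL4 at 0.934, and CST1 and EVA1C at 0.860. KRT15 was least like the others, from -0.296 with RMI2 to 0.440 with ADAMTSL4. Among 13874 other genes with a mean of at least 1 CPM, the closest to RMI2 were RAD1 (0.991) and ID1 (0.989), to IPPK OTUD6B (0.984) and NAA30 (0.966), and to EVA1C APOBEC3B (0.980) and FCGBP (0.979). GEMIN5 was closest to ARFIP1 (0.975) and OTUD6B (0.938), LMNB1 to USP10 (0.974) and CYB561A3 (0.972), ADAMTSL4 to GPN2 (0.951) and OTUD6B (0.946), and MBNL1 to TTLL4 (0.946) and CDC23 (0.943). CST1 was closest to ARNTL2 (0.941) and ANKRD22 (0.931), KRT15 to MGST1 and IL4R (both 0.937), and PLSCR4 to SMAD5 (0.908) and NFIB (0.905).

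Among other genes of the same pathways, few changed with siATF6, and in some lists none passed. At 6 h 2.76% of all genes rose and 4.08% fell, and in 0 and 25 mM at 16 h 2.91% and 0.577% fell. Of the other genes tested in each list at 6 h, 2 of 14 cystatins and cathepsins rose (CST2 by 1.87, adjusted p = 0.0105, and the lysosomal protease CTSL by 0.58, adjusted p = 0.0142). CST2 is a near copy of CST1 and may hold its reads. CST1 was chosen on these libraries, so the CST2 call is not separate from that choice. Also higher were 1 of 15 genes of the lamina and inner nuclear membrane (TMPO, 0.47, adjusted p = 0.0196) and 2 of 15 of the BLM complex and its partners (TOP3A, 0.29, adjusted p = 0.0198, and RPA1, 0.25, adjusted p = 0.0139). Scramblases and flippases had 2 of 10 lower (TMEM30A, -0.76, adjusted p = 0.00812; ATP8B1, -0.70, adjusted p = 0.0109), ADAMTS-like and microfibril genes 2 of 18 lower (LTBP1, -1.16, adjusted p = 9.89e-05; THSD4, -0.66, adjusted p = 0.0188), and MBNL, CELF and related splicing regulators 1 of 13 lower (RBM20, -0.56, adjusted p = 0.0483). None of 14 inositol phosphate kinases and phosphatases and none of 11 keratins passed at 6 h. Medians of the 10 lists built around the genes lay between -0.23 and 0.17 at 6 h, against 0.00 for all genes tested. In the same comparison 4 of 24 S phase genes rose (MCM5, MCM7, LIG1, CDC45), with a median of 0.18, and PLK1 rose among 23 genes of G2 and mitosis.

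**Figure D4:**
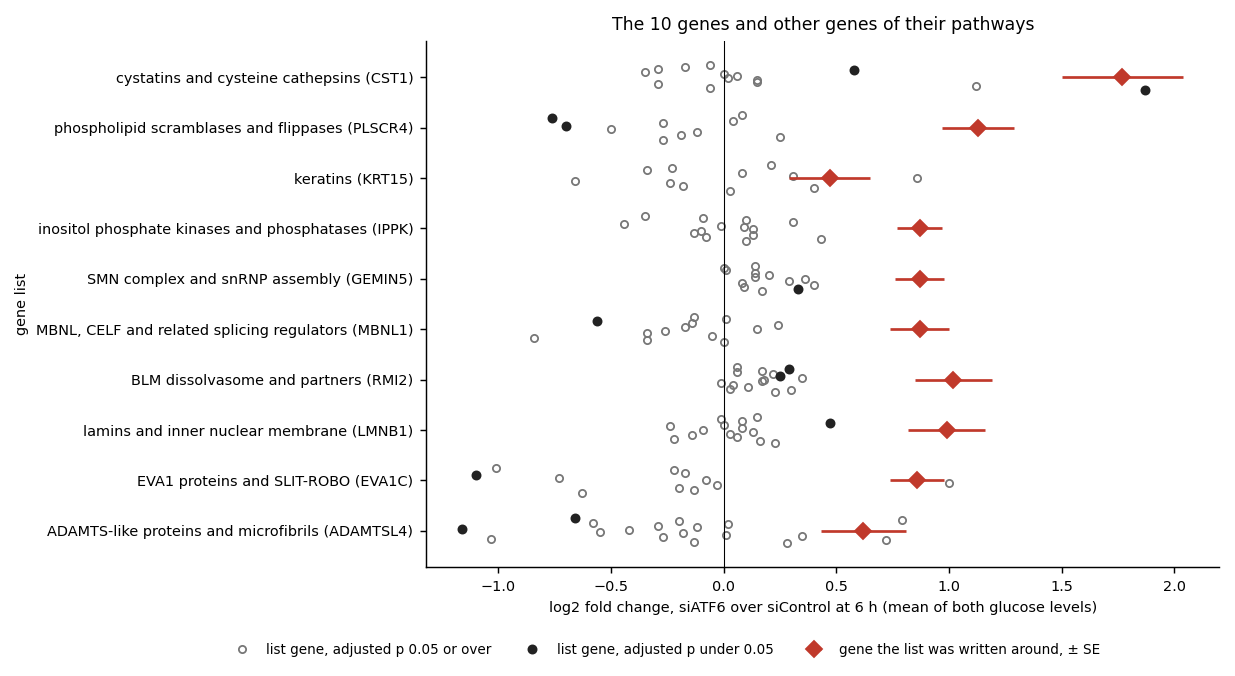
Log2 fold change of siATF6 over siControl at 6 h (x axis) for each of the 10 genes (diamonds, ± SE) and for the other tested genes of the list written around it (circles, filled where the adjusted p was under 0.05). Most circles lie between -0.5 and 0.5, with CST2 at 1.87 beside CST1, its near copy, and SLIT3 at -1.10, left of EVA1C at 0.86.

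Known ATF6 targets include ER chaperones and degradation genes. Of 19 measured, 8 were lower with siATF6 in 0 mM glucose at 16 h, where 2.91% of all genes were, among them CRELD2 (-1.38, adjusted p = 0.000139), PDIA4 (-1.10, adjusted p = 0.000313) and DNAJB11 (-0.76, adjusted p = 0.000134). None was lower in 25 mM at 16 h or at 6 h, where the list's median was -0.01 and -0.45. Withdrawal of glucose raised all 19 at 16 h with siATF6, siATF4 and siControl (medians of 1.97, 2.64 and 2.53). With siATF4 in 0 mM at 16 h, where IPPK, GEMIN5, RMI2, LMNB1 and ADAMTSL4 rose, 9 of 24 S phase genes, 6 of 23 genes of G2 and mitosis and 6 of 13 genes of SMN complex and snRNP assembly rose as well, where 7.46% of all genes did, with list medians of 0.39, 0.36 and 0.35. Among these were GEMIN4 (0.64, adjusted p = 0.000399), MCM7 (0.87, adjusted p = 0.000938) and the lamina genes LMNB2 (0.59, adjusted p = 0.00146) and LMNA (0.52, adjusted p = 0.043). Their part in the siATF4 results was not tested.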

How the data were processed

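Poly(A) RNA from 36 A549 cultures was sequenced as pairs without strand. The authors deposited RSEM expected counts per gene, made with fastp, STAR and RSEM on GRCh38, per the submitters' processing notes. For the annotation release, the sources used here give nothing. Expected counts were rounded to whole numbers. Genes passed edgeR's filterByExpr (minimum count 10, total 15), with TMM scaling and the quasi-likelihood test (edgeR 4.0.16, R 4.3.3), Benjamini-Hochberg adjusted p under 0.05 over all genes, and no replicate block. Comparisons at 16 h used the 18 libraries of that time (18013 genes), and those at 6 h or over time used 35 libraries (19030 genes). Adjusted p-values named here are from edgeR unless DESeq2 (1.42.0) is named. CPM used TMM library sizes. TPM were computed from the counts and the deposited effective lengths. The fits were tested on simulated data. Chi-square per gene between replicates of a group was at least 9.11, so no library repeats another of its group. Libraries of different groups, and the library with 2.87 M counts, were not compared in this way. P-values measure the spread between cultures of a single line.

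The 10 genes and all gene lists were chosen with earlier results of these data known. Genes most like each of the 10 were named by the highest Pearson correlation over 12 group means, 2 for each. Interactions, siATF6 over siATF4 and counts of groups without overlap were added after seeing the data. Replicate numbers paired the samples (3 or more pairs, every correlation of deviations over 0.1) in 2 comparisons: 0 over 25 mM at 16 h in siControl (0.185 to 0.438) and siATF4 over siControl in 25 mM at 16 h (0.218 to 0.479). Alternatives were DESeq2, its size factors, no filter, a replicate block, only the libraries compared, 29 libraries without 6 h replicate 2, all 36 libraries, and each library left out in turn.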

Additional observations from a re-analysis of the deposited data

How the results depend on the processing

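Counts below are of the 10 genes past the threshold, with the value reported above given after the alternatives. With all 36 libraries in the fit, 0 over 25 mM glucose at 16 h gave 2 (siATF6), 1 (siATF4) and 1 (siControl), where 6, 3 and 4 were reported, and at 6 h 1 with siATF4, where 0 was reported. For 16 over 6 h it gave 1 (siATF6), 2 (siATF4) and 0 (siControl), where 6, 5 and 1 were reported, and KRT15 with siATF4 turned to -0.36, where 0.57 was reported. For siATF4 over siControl it gave 0 in 0 mM at 16 h and 0 at 6 h, where 5 and 5 were reported. With only the libraries compared, these 2 counts were also 0 and 0, and 16 over 6 h gave 2 (siATF4) and 0 (siControl). With 29 libraries, siATF4 over siControl at 6 h gave 1, and 16 over 6 h gave 2 (siATF4) and 2 (siControl). In 25 mM at 16 h, DESeq2 and the replicate block each gave 1 for siATF4 over siControl, where edgeR gave 0, and the block gave 5 for 0 over 25 mM at 16 h with siATF4. The cause was not tested, beyond the fewer or added libraries of each fit.

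Leaving out each library in turn gave 3 to 5 (siATF6), 2 to 4 (siATF4) and 3 to 4 (siControl) for 0 over 25 mM at 16 h, 0 at 6 h, and 4 to 6 (siATF6), 2 to 5 (siATF4) and 0 to 2 (siControl) for 16 over 6 h. For siATF4 over siControl it gave 3 to 6 in 0 mM and 0 in 25 mM at 16 h, and 2 to 5 at 6 h. The count over all genes for siATF6 over siControl then ran over 211 to 902 in 0 mM and 19 to 98 in 25 mM at 16 h and 853 to 1325 at 6 h, and for siATF4 over siControl over 545 to 4032, 2 to 10 and 10 to 69. For 16 over 6 h it ran over 1389 to 3538 (siATF4) and 360 to 669 (siControl).

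Counts over all genes moved by more than 1.5 times in several fits. For siATF6 over siControl, 726 genes in 0 mM at 16 h became 1569 (DESeq2), 1875 (block) and 11 (36 libraries). In 25 mM at 16 h 140 became 500, 540 and 4, with 878 for only the libraries compared and 87 with no filter. At 6 h 1302 became 2231 (block), 397 (29 libraries), 568 (only the libraries compared), 836 (no filter) and 51 (36 libraries). For siATF4 over siControl, 2271 in 0 mM at 16 h became 3707 (DESeq2), 4138 (block), 14 (36 libraries) and 0 (only the libraries compared), 8 in 25 mM became 170, 54, 0 and 0, and 44 at 6 h became 188, 173, 2 and 0, with 13 for 29 libraries. For 0 over 25 mM at 16 h, 36 libraries gave 868 (siATF6, reported 6039), 345 (siATF4, 5238) and 564 (siControl, 5231), and only the libraries compared gave 1335 for siATF4. For 16 over 6 h, 36 libraries gave 50 (siATF6, 1838) and 3 (siControl, 739), the block 2798 and 1441, DESeq2 1209 (siControl), and for siATF4 (2594) only the libraries compared gave 567 and 29 libraries 1584. At 6 h, 0 over 25 mM with 29 libraries gave 317 (siATF6), 231 (siATF4) and 557 (siControl), where 0 were called, and 36 libraries gave 2228 with siATF4.

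In the comparisons whose replicate numbers do not pair the samples, the correlations of deviations went as low as -0.277, so the block fits there join samples by number only. Single-gene values under all alternatives were compared only where the gene had passed in the fit reported above. For siATF6 over siControl, a value within the SE of the reported one was counted as kept, whatever its adjusted p. In the other comparisons, a value was kept with the same direction and side of the threshold. By these rules 827 were kept, 131 no longer passed, 19 moved by more than the SE and 1 reversed. Rounded expected counts of low genes such as CST1 limit its precision, and the reads shared by IPPK and CENPP cannot be divided.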
